A study of Mus musculus with 11 samples.

Results

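Chemokine and chemoattractant receptors are the cell-surface sensors with which macrophages and their precursors follow gradients into inflamed tissue. The 7 described here are Ccr1, Ccr2, Ccr3, Cx3cr1, Ccrl2, Fpr1 and Fpr2, picked by gene symbol from the 31936 genes of the expression table, and all 7 were found in it. RNA sequencing compared 2 groups of peritoneal macrophages from female mice, cells that enter the abdominal cavity after thioglycollate is injected. 6 libraries came from cells given a microRNA-150 (miR-150) mimic, a synthetic RNA that supplies the microRNA, and 5 from cells given a negative control. Both groups shared the cell type, the sex and the thioglycollate elicitation. The sources used here do not give strain, age, dose or time after treatment. The title of the series places the experiment in work on macrophages, this microRNA and the vessel overgrowth of macular degeneration.

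The receptors sense peptides or chemokines outside the cell, and all but Ccrl2 pass the signal to inhibitory G proteins, which drive cell movement. Ccr2 takes inflammatory monocytes out of the bone marrow towards Ccl2 and Ccl7, Ccr1 binds ligands such as Ccl3 and Ccl5, Ccr3 is the eotaxin receptor of eosinophils, and Cx3cr1 binds fractalkine (Cx3cl1). Ccrl2 is an atypical receptor that holds chemerin at the cell surface without signalling itself, and Fpr1 and Fpr2 detect formylated peptides from bacteria and mitochondria.

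Libraries held 20313901 to 25473814 reads assigned to genes with the mimic and 18538509 to 22668862 with the control. Whether the replicates were separate animals or cultures is not said in the labels, and the p-values speak only for the spread among these libraries, which may be technical. Expression is given as log2 CPM, where CPM is the read number of a gene after the authors' scaling of every library to the same total. Macrophage markers were abundant, with 8 listed genes summing to 15930 to 20300 CPM in mimic libraries and 17780 to 20590 CPM in control libraries. Mimic replicates 3, 4 and 6 stood apart from the other libraries in a slope on transcript length over 12933 genes. The slope was fitted to each library's log2 CPM minus the control mean. Control slopes are therefore small in part by construction. Mimic replicates 3, 4 and 6 had slopes of 0.0925, 0.1228 and 0.1057 log2 units per doubling of length. The other mimic libraries had -0.0289 to 0.0507 and the control libraries -0.0156 to 0.0105. Values without these 3 libraries are given for every receptor. They are also given beside each named gene of the receptor, ligand and signalling lists whose call they end. For other named genes, such as the cell type markers and Fyco1, such values are not given, so their calls may or may not hold.

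Per length of exon sequence, the receptors spanned a wide range of levels in both groups. Ccrl2 averaged 47.6 ± 4.67 CPM per kb with the mimic (SD, n = 6) and 52.2 ± 2.62 with the control (SD, n = 5). Ccr1 averaged 43.7 ± 2.99 CPM per kb with the mimic and 36.2 ± 2.29 with the control. The ranges of Ccrl2 and Ccr1 overlapped in mimic libraries, where Ccrl2 was above Ccr1 in 4 of 6, and did not overlap in control libraries. Ccr2 came next at 1.44 ± 0.105 CPM per kb with the mimic and 0.830 ± 0.135 with the control, so that the Ccr1 level was 30.25 times that of Ccr2 with the mimic and 43.6 times with the control.

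Below Ccr2 lay the formyl peptide receptors and Cx3cr1, whose ranges overlapped within each group. Fpr1 averaged 0.574 ± 0.256 CPM per kb with the mimic and 0.585 ± 0.225 with the control. Fpr2 averaged 0.578 ± 0.237 with the mimic and 0.351 ± 0.109 with the control, and Cx3cr1 averaged 0.453 ± 0.0905 with the mimic and 0.418 ± 0.0866 with the control. The Ccr2 range lay above all 3 in mimic libraries, while in control libraries it overlapped that of Fpr1. Ccr3 was lowest in both groups, at 0.126 ± 0.0278 CPM per kb with the mimic and 0.0671 ± 0.0311 with the control, below the range of every other receptor.

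**Figure D1:**
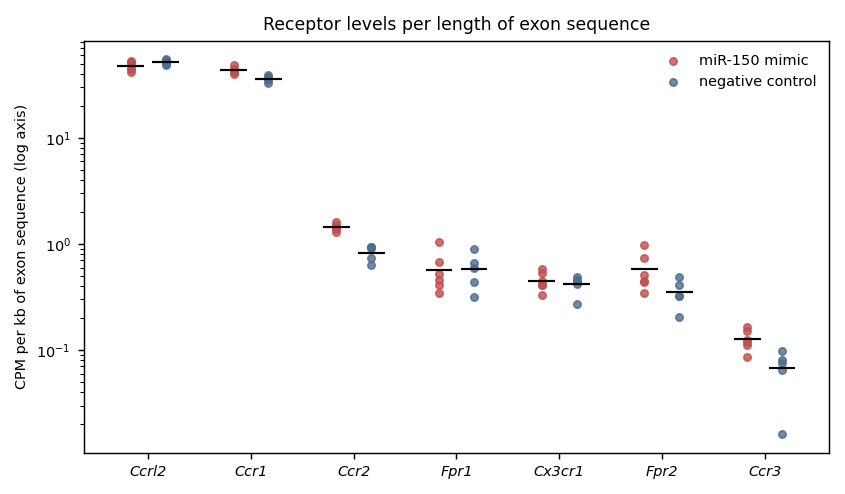
CPM per kb of exon sequence on a log axis for the 7 receptors, mimic libraries left and control libraries right for each gene; points are libraries and bars group means. Ccrl2 and Ccr1 sit near 50 and 40 CPM per kb, Ccr2 near 1, and Ccr3 lowest in both groups.

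In the fit across all genes, 2 of the 6 receptors tested were called higher with the mimic, Ccr2 and Ccr1, none was called lower, and 4 were not called. The test was limma's moderated linear model with Benjamini-Hochberg adjustment over 12969 genes, called below an adjusted p of 0.05. It called 15.4% of these genes higher and 14.6% lower, so the receptors' share in either direction, set against 30.0% called in all, rests on 6 genes. Their median log2 fold change was 0.19, against 0.00071 over all genes tested. Ccr3 did not pass the filter on low values, which asked for 5 or more libraries at a log2 CPM of -1 or above. Fpr2 passed it through 5 mimic and only 2 control libraries, so it entered the fit mostly through the group in which it was higher. These are bulk libraries, in which fewer cells of a type and less RNA per cell cannot be told apart.

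**Figure D2:**
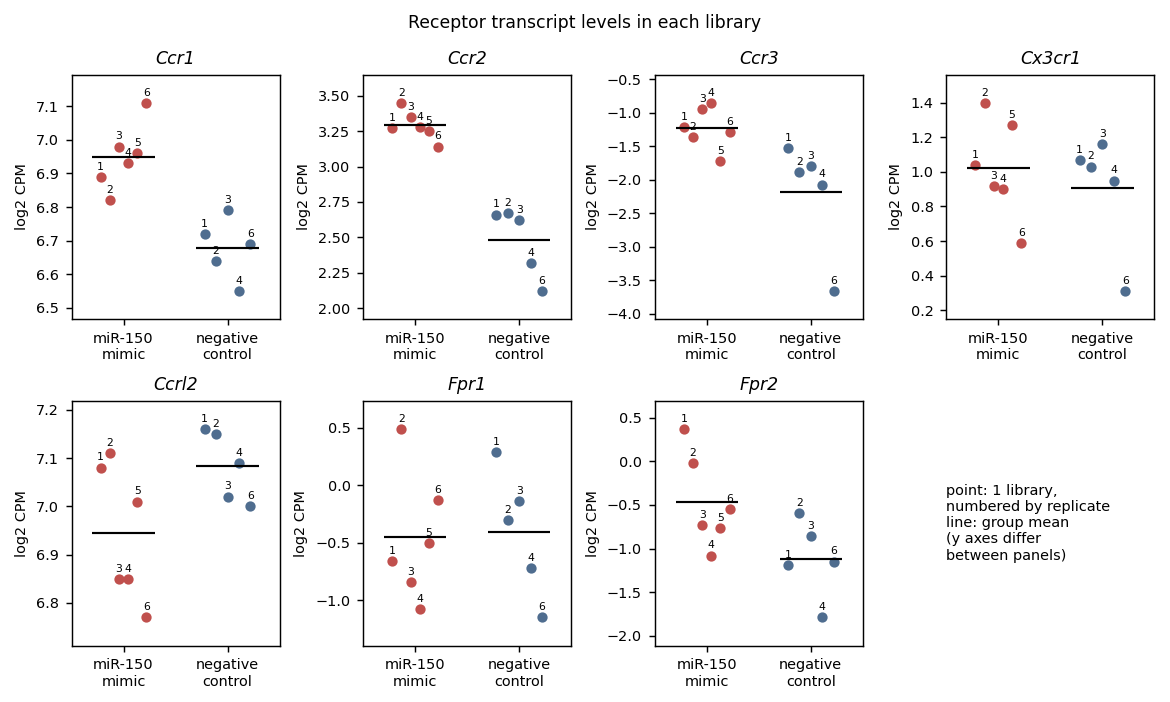
log2 CPM of each receptor in each library, mimic left and negative control right, numbered by replicate, with a line at the group mean; the y axes differ between panels. The groups do not overlap for Ccr1 and Ccr2 and overlap for the other 5 receptors.

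Ccr2, the receptor for Ccl2, rose most of the 2 receptors called. It lies on chromosome 9 from 124101950 to 124113557 on the plus strand (GRCm38, GENCODE M21; ENSMUSG00000049103). In mimic libraries its log2 CPM had a lowest value of 3.14, a median of 3.27 and a highest value of 3.45, from 190 to 245 reads. In control libraries it was 2.66, 2.67, 2.62, 2.32 and 2.12 for replicates 1, 2, 3, 4 and 6, from 82 to 139 reads. Every mimic library was above every control library, a pattern shown by 8.89% of the genes tested (6.04% had the opposite pattern, 14.9% either), and control replicates 4 and 6 were the lowest. The log2 fold change was 0.81 ± 0.0984 (SE; 95% interval 0.601 to 1.017), or 1.75-fold, with a limma adjusted p of 1.497e-05. It was 0.84 without mimic replicates 3, 4 and 6 (limma adjusted p = 1.533e-05).

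Ccr2 marks inflammatory monocytes, so other genes of these cells were read beside it. Of 6 listed monocyte markers, 5 were tested. Ly6c2, a surface antigen of inflammatory monocytes, was higher by 2.15 on the log2 scale and the proteoglycan gene Vcan by 0.56. Ly6c2 had 255 reads over the mimic libraries and 42 over the control libraries, averaging 1.845 CPM with the mimic and 0.4038 CPM with the control. At so low a control level, it may have entered the fit mostly through the group in which it was higher. Hp (haptoglobin) was lower at -0.31, and the chitinase-like gene Chil3 was not called, at 0.06, while Plac8 was under the filter. The 6 genes together summed to 52.5 to 67.1 CPM in mimic libraries and 57.9 to 71.3 CPM in control libraries, and none was at 0. Their part in the Ccr2 difference was not tested.

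The Ccr2 counts can hold reads of related genes. Of 5679 stretches of 50 bases in its longest transcript, 2.27% also occurred in other genes, and the sources used here do not say how the authors' counting treated such reads. Its coding sequence was 60.0% identical to that of Ccr1, with no stretch of 50 bases in common.

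Ccr1, a receptor for Ccl3, Ccl5 and Ccl9, rose less than Ccr2 from a far higher level. It lies on chromosome 9 from 123962124 to 123968692 on the minus strand (ENSMUSG00000025804), and none of its 50-base stretches was shared with another gene. In mimic libraries its log2 CPM had a lowest value of 6.82, a median of 6.94 and a highest value of 7.11. In control replicates 1, 2, 3, 4 and 6 it was 6.72, 6.64, 6.79, 6.55 and 6.69. The groups did not overlap, and the gap between mimic replicate 2 and control replicate 3 was narrow. The log2 fold change was 0.27 ± 0.0532 (SE; 95% interval 0.159 to 0.384), or 1.21-fold, with a limma adjusted p of 0.001644, and it was 0.21 without mimic replicates 3, 4 and 6 (limma adjusted p = 0.002634).

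Ccr2 and Ccr1 did not rise by the same factor. The log2 ratio of Ccr2 to Ccr1 within a library averaged -3.66 ± 0.192 with the mimic (SD, n = 6) and -4.20 ± 0.229 with the control (SD, n = 5). The difference of 0.54 gave p = 0.00649 in a 2-sided exact permutation test over the 11 libraries. It was 1 of 4 within-library ratios computed, chosen after the receptors' values were seen, and the p adjusted over the 4 was 0.0216.

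Ccr3 was the least abundant receptor, and its values rest on few reads. It lies on chromosome 9 from 124021972 to 124031689 on the plus strand (ENSMUSG00000035448). Mimic libraries held 8, 8, 12, 13, 7 and 10 reads for replicates 1 to 6, against 7, 5, 6, 4 and 1 in control replicates 1, 2, 3, 4 and 6. 5 of the 6 mimic libraries had a higher log2 CPM than all control libraries, mimic replicate 5 fell within the control range, and control replicate 6, with a single read, lay far below the rest. Mean log2 CPM was -1.23 ± 0.312 with the mimic (SD, n = 6) and -2.19 ± 0.844 with the control (SD, n = 5).

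The Ccr3 difference of 0.96 gave an unadjusted p of 0.00649 in a 2-sided exact permutation test. Fitted with no filter among all 31936 genes it did not pass the threshold, at 0.96 ± 0.355 (SE; limma adjusted p = 0.0676). The difference was 0.59 without control replicate 6 (exact permutation p = 0.0238) and 0.76 without mimic replicates 3, 4 and 6 (exact permutation p = 0.161). Eosinophils carry Ccr3, and 7 of their genes were read beside it. Epx (eosinophil peroxidase) had 10 reads over the mimic libraries and 9 over the control libraries, and Prg2 (major basic protein) had 3 with the mimic and 2 with the control. Ear2, an eosinophil ribonuclease gene, had 280 reads with the mimic and 226 with the control and was not called. The 7 listed eosinophil genes summed to 28.9 to 31.5 CPM in mimic libraries and 35.6 to 38.7 CPM in control libraries. Most of that sum was Siglecf, a lectin gene that averaged 27.8 CPM with the mimic and 34.5 CPM with the control. Siglecf was called lower, at -0.31. The part of eosinophils in the Ccr3 values was not tested.

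Ccr1, Ccr3 and Ccr2 sit in one cluster of receptor genes on chromosome 9. Ccr3 begins 53.3 kb beyond Ccr1 and Ccr2 lies 70.3 kb beyond Ccr3. From Ccr9 to Ccr2 the table lists 11 annotated genes. Of these, 6 were tested and 4 were called higher, Ccr9, Fyco1, Ccr1 and Ccr2, with none called lower. Over all genes tested, 15.4% were called higher and 14.6% lower, and the count here rests on 6 genes. Ccr1 and Ccr2 are among the receptors described, and Ccr9 kept its call in only 9 of 20 alternatives. Fyco1, a vesicle transport gene that is no receptor, was 0.39 higher (limma adjusted p = 0.0005605). Cxcr6, the Cxcl16 receptor, was not called at 0.38 (limma adjusted p = 0.1514), nor was Lztfl1 at 0.15 (limma adjusted p = 0.1488). Xcr1, the receptor for Xcl1, had 37 reads over the mimic libraries and 44 over the control libraries, and Ccr1l1, a Ccr1-like gene, had 13 with the mimic and 9 with the control.

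Cx3cr1, the fractalkine receptor, did not pass the test. It lies on chromosome 9 from 119901616 to 120069879 on the minus strand (ENSMUSG00000052336), a span in which GENCODE M21 also places other genes. Mimic libraries had a lowest log2 CPM of 0.59, a median of 0.98 and a highest of 1.40, against 1.07, 1.03, 1.16, 0.95 and 0.31 in control replicates 1, 2, 3, 4 and 6. The groups overlapped, and control replicate 6 was again the lowest of its group. The log2 fold change was 0.12 ± 0.170 (SE; 95% interval -0.245 to 0.476; limma adjusted p = 0.632), and it was -0.0324 without control replicate 6 (limma adjusted p = 0.8893) and 0.33 without mimic replicates 3, 4 and 6 (limma adjusted p = 0.2423).

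Ccrl2, the chemerin-binding receptor, had the highest level per length of the 7 receptors and was not called. It lies on chromosome 9 from 111054486 to 111057519 on the minus strand (ENSMUSG00000043953), far from the Ccr1 cluster. Mimic libraries had a lowest log2 CPM of 6.77, a median of 6.93 and a highest of 7.11, against 7.16, 7.15, 7.02, 7.09 and 7.00 in control replicates 1, 2, 3, 4 and 6. Mimic replicates 3, 4 and 6 were below all control libraries, and the other 3 mimic libraries lay within the control range.

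The Ccrl2 log2 fold change was -0.14 ± 0.0609 (SE; 95% interval -0.265 to -0.008; limma adjusted p = 0.0988). Without mimic replicates 3, 4 and 6 it was -0.0136 (limma adjusted p = 0.8705). It passed the threshold in 5 of 21 alternatives, among them quantile normalization, at -0.20 (limma adjusted p = 0.0317). The Ccr1 to Ccrl2 log2 ratio within a library averaged 0.00 ± 0.230 with the mimic (SD, n = 6) and -0.40 ± 0.135 with the control (SD, n = 5). Its difference of 0.41 gave p = 0.0108 in a 2-sided exact permutation test, 0.0216 adjusted over the 4 ratios. Without mimic replicates 3, 4 and 6 it was 0.23 (exact permutation p = 0.0536).

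**Figure D3:**
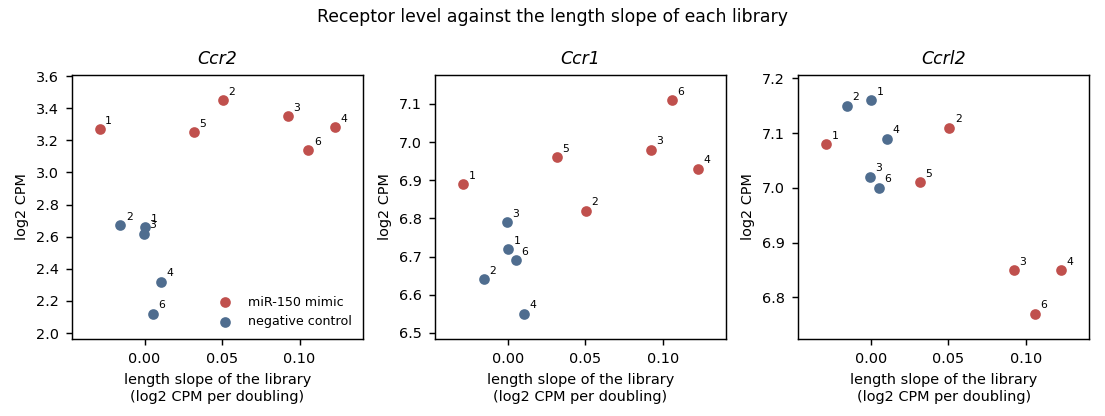
log2 CPM of Ccr2, Ccr1 and Ccrl2 in each library against that library's slope on transcript length, in log2 CPM per doubling of length. The slope was fitted to log2 CPM minus the control mean, and points are libraries numbered by replicate. Mimic replicates 3, 4 and 6 have slopes of 0.0925, 0.1228 and 0.1057 and the lowest Ccrl2 values, and Ccr2 is high in all 6 mimic libraries whatever their slope.

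The formyl peptide receptors Fpr1 and Fpr2, neighbours 3.9 kb apart on chromosome 17, were both near the filter. Fpr1 lies from 17876471 to 17883940 on the minus strand (ENSMUSG00000045551) and Fpr2 from 17887824 to 17893952 on the plus strand (ENSMUSG00000052270). Fpr1 had 11 to 30 reads in mimic libraries and 8 to 26 reads in control libraries. Its log2 CPM had a lowest value of -1.08, a median of -0.58 and a highest value of 0.49 with the mimic, against 0.29, -0.30, -0.14, -0.72 and -1.15 in control replicates 1, 2, 3, 4 and 6. The groups overlapped almost completely. The log2 fold change was -0.05 ± 0.293 (SE; 95% interval -0.666 to 0.572; limma adjusted p = 0.920), and its sign turned in 6 of 20 alternatives, with 0.18 without mimic replicates 3, 4 and 6 (limma adjusted p = 0.7672).

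Fpr2, which also binds annexin A1 and serum amyloid A, had 11 to 25 reads in mimic libraries and 5 to 13 reads in control libraries. Its log2 CPM had a lowest value of -1.08, a median of -0.64 and a highest value of 0.37 with the mimic, against -1.19, -0.59, -0.86, -1.79 and -1.15 in control replicates 1, 2, 3, 4 and 6. Mimic replicates 1, 2 and 6 were above all control libraries, and the other 3 lay within the control range. The log2 fold change was 0.65 ± 0.281 (SE; 95% interval 0.057 to 1.245), with a limma p of 0.0336 unadjusted and 0.0883 adjusted, so it was not called. It passed the threshold without mimic replicates 3, 4 and 6, at 0.98 (limma adjusted p = 0.03951), and under the transcript length correction, at 0.79 (limma adjusted p = 0.02891).

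Within libraries, the Fpr2 to Fpr1 log2 ratio averaged -0.01 ± 0.562 with the mimic (SD, n = 6) and -0.71 ± 0.591 with the control (SD, n = 5). The difference of 0.70 gave p = 0.0758 in a 2-sided exact permutation test, 0.101 adjusted over the 4 ratios. It was 0.88 without control replicate 6 (exact permutation p = 0.0286, unadjusted). The remaining 12 of 13 alternatives gave an unadjusted exact permutation p of 0.0635 to 0.179. Neutrophils carry both receptors, and 9 of their marker genes were read beside them. S100a9 had 0 reads over the mimic libraries and 2 over the control libraries, Ly6g had 3 with the mimic and 3 with the control, and S100a8 was called lower, at 10.1 CPM with the mimic and 14.6 CPM with the control. The 9 genes summed to 201 to 216 CPM in mimic libraries and 202 to 222 CPM in control libraries. Most of that sum was Csf3r, at 115 CPM with the mimic and 117 CPM with the control, and Mmp8, at 82.3 CPM with the mimic and 79.4 CPM with the control, neither of them called. The part of neutrophils in the Fpr values was not tested.

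The Fpr2 counts are uncertain because the gene has a near-identical copy. Of 1084 stretches of 50 bases in its longest transcript, 37.18% occurred in another gene, most of them in the pseudogene Gm5966, and Fpr2 also overlaps Fpr3 on the same strand. The coding sequences of Fpr1 and Fpr2 were 66.4% identical, and 0.08% of the Fpr1 stretches were shared with any other gene.

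The authors' deposited table gives the same 2 receptors past an adjusted p of 0.05. It lists Ccr2 at a log2 fold change of 0.80 (95% interval 0.58 to 1.02, adjusted p = 3.209e-05) and Ccr1 at 0.27 (0.17 to 0.38, adjusted p = 0.00141). The authors' deposited table lists Ccr3 at 0.93 (0.20 to 1.67, adjusted p = 0.115), Ccrl2 at -0.14 (adjusted p = 0.1345) and Fpr2 at 0.61 (adjusted p = 0.2398). In the authors' deposited table, 9.20% of 31936 genes pass that threshold, and 4.69% of the 31936 pass it and are higher with the mimic.

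Among the other chemokine receptors, 19 genes were listed and 8 were tested. 2 were higher, 1 was lower and 5 were not called, with a median log2 fold change of 0.17. Shares over all genes tested were 15.4% higher and 14.6% lower, and these counts rest on 8 genes. Ccr9, the receptor for Ccl25, was among the higher genes, at 0.63 ± 0.221 (SE; limma adjusted p = 0.04166). The Ccr9 groups overlapped, and the call was lost in 11 of 20 alternatives, with 0.45 without mimic replicates 3, 4 and 6 (limma adjusted p = 0.2734). Cxcr4, the Cxcl12 receptor, was lower at -0.19 ± 0.0560 (SE; limma adjusted p = 0.01947). Its call was lost without mimic replicates 3, 4 and 6, at -0.0963 (limma adjusted p = 0.1902), and without control replicate 1 or 2.

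Of 23 other leukocyte chemoattractant receptors, 13 were tested, 5 were higher, none was lower and 8 were not called, with a median of 0.10. Beside these counts, which rest on 13 genes, 15.4% of all genes tested were called higher and 14.6% lower. C3ar1, the receptor for the complement fragment C3a, averaged 10.79 ± 0.0577 log2 CPM with the mimic (SD, n = 6) and 10.35 ± 0.0693 with the control (SD, n = 5), without overlap, a change of 0.44 ± 0.0418 (SE; limma adjusted p = 7.675e-07). C5ar1, the C5a receptor, averaged 6.66 ± 0.0920 with the mimic and 6.64 ± 0.0784 with the control, and was not called at 0.02 (limma adjusted p = 0.7873). The leukotriene receptors Cysltr1 and Cysltr2 rose by 0.59 ± 0.0769 and 0.87 ± 0.151 (SE; limma adjusted p = 3.13e-05 and 0.0006121), each without overlap between groups. All mimic libraries were above all control libraries for 8.89% of the genes tested. P2ry12, an ADP receptor, was 0.64 higher (limma adjusted p = 0.02783) and S1pr1, a sphingosine 1-phosphate receptor, 0.21 higher (limma adjusted p = 0.02507). The P2ry12 call was lost in 5 of 20 alternatives, among them the omission of mimic replicate 2 or control replicate 1 or 4. The S1pr1 call was lost in 7 of 21, among them the omission of mimic replicate 3 or 6 or control replicate 1, 4 or 6, and S1pr1 was at 0.12 without mimic replicates 3, 4 and 6 (limma adjusted p = 0.2086).

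Among 21 ligands of the 7 receptors, 12 were tested, 4 were higher, 2 were lower and 6 were not called, with a median of 0.045. These counts rest on 12 genes, and over all genes tested 15.4% were called higher and 14.6% lower. Ccl5, a ligand of Ccr1 and Ccr3, rose most, to 1.45 ± 0.384 log2 CPM with the mimic (SD, n = 6) against -0.95 ± 0.361 with the control (SD, n = 5), a change of 2.40 ± 0.205 (SE; limma adjusted p = 1.883e-07). The Ccr2 ligands Ccl2 and Ccl7 rose by 0.87 ± 0.106 and 1.06 ± 0.242 (SE; limma adjusted p = 1.64e-05 and 0.004616). The chemokine gene Ccl4 was 0.59 higher (limma adjusted p = 0.01444). The Ccr1 ligands Ccl3, Ccl6 and Ccl9 were not called, at 0.11, -0.09 and 0.19.

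The 2 lower ligands were Saa3 and Ccl24. Saa3, a serum amyloid A gene of macrophages, was at -0.49 ± 0.116 (SE; limma adjusted p = 0.008321), and at -0.29 without mimic replicates 3, 4 and 6 (limma adjusted p = 0.2075). Ccl24, an eotaxin that binds Ccr3, was at -1.07 ± 0.329 (SE; limma adjusted p = 0.02277), and at -0.57 without those libraries (limma adjusted p = 0.168). Ccl24 rests on few reads, 57 over the mimic libraries and 82 over the control libraries. All control libraries passed the filter level of -1, with a lowest log2 CPM of -0.55, while mimic libraries reached down to -2.80. Ccl24 thus entered the fit mostly through the group in which it was higher. Of the ligands under the filter, Cx3cl1 had 25 reads over the mimic libraries and 26 over the control libraries, Rarres2 (chemerin) had 6 with the mimic and 3 with the control, and Ccl11 had 1 with the mimic and 3 with the control. The Fpr2 ligand Anxa1 (annexin A1) was not called, at -0.12 (limma adjusted p = 0.1232).

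**Figure D4:**
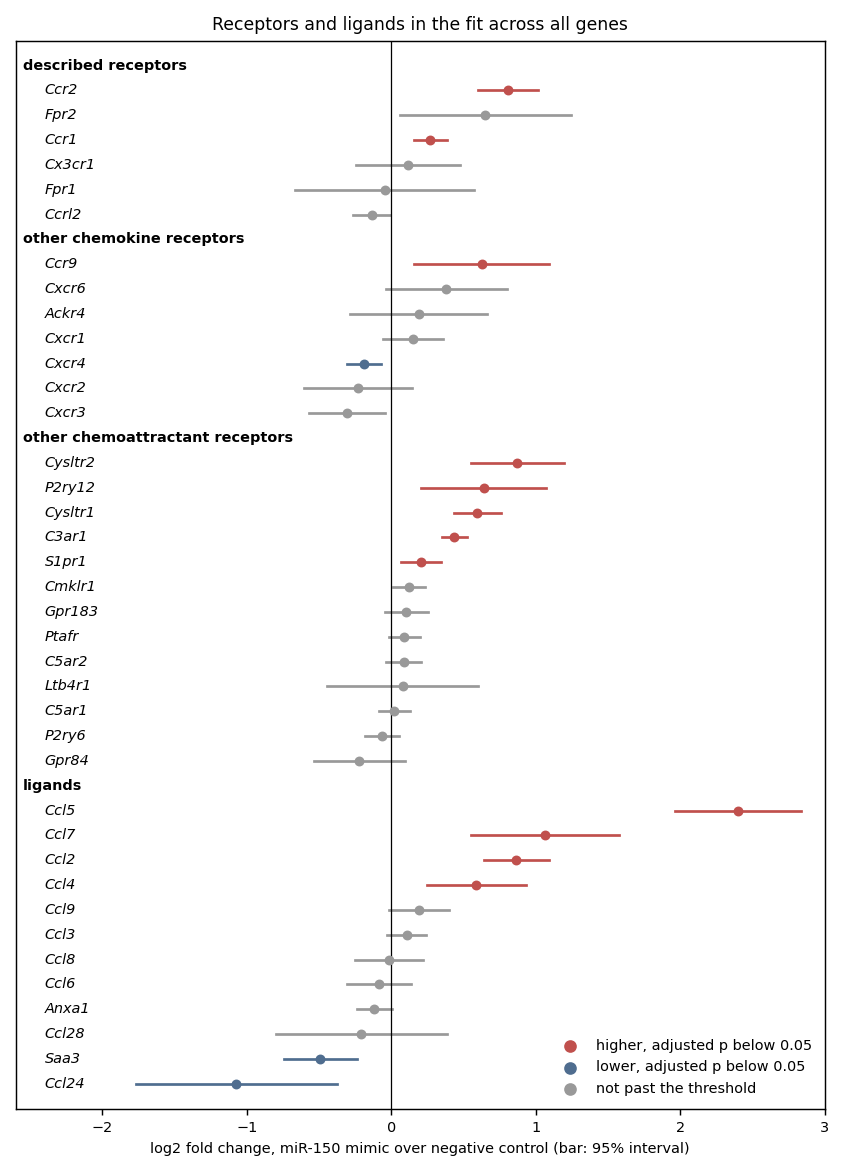
log2 fold change, mimic over negative control, with 95% intervals for the 6 tested receptors and all but 1 of the tested genes of 3 lists; red marks higher, blue lower and grey not past an adjusted p of 0.05. Ccr2 and Ccr1 are the called receptors of the first block, at 0.81 and 0.27, and Ccl5 has the largest value of all, at 2.40.

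Genes of the signalling machinery below these receptors moved in both directions. Of 36 listed, 34 were tested, 7 were higher, 8 were lower and 19 were not called, with a median of -0.043. For all genes tested the shares were 15.4% higher and 14.6% lower. The higher genes included the Src family kinase Lyn at 0.26 ± 0.0393, Rgs1 and Rgs2, which switch off G protein subunits, at 0.26 ± 0.0470 and 0.19 ± 0.0364, and the G protein subunit gene Gng2 at 0.16 ± 0.0378 (SE). Their limma adjusted p values were 0.0001848 for Lyn, 0.0007829 for Rgs1, 0.001187 for Rgs2 and 0.005347 for Gng2. The lower genes included Grk5, a kinase that desensitises receptors, at -0.28 ± 0.0460 (SE; limma adjusted p = 0.0003704), and Rgs10 at -0.39 ± 0.0924 (SE; limma adjusted p = 0.006786). Without mimic replicates 3, 4 and 6, Rgs10 was at -0.23 (limma adjusted p = 0.2105).

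**Figure D5:**
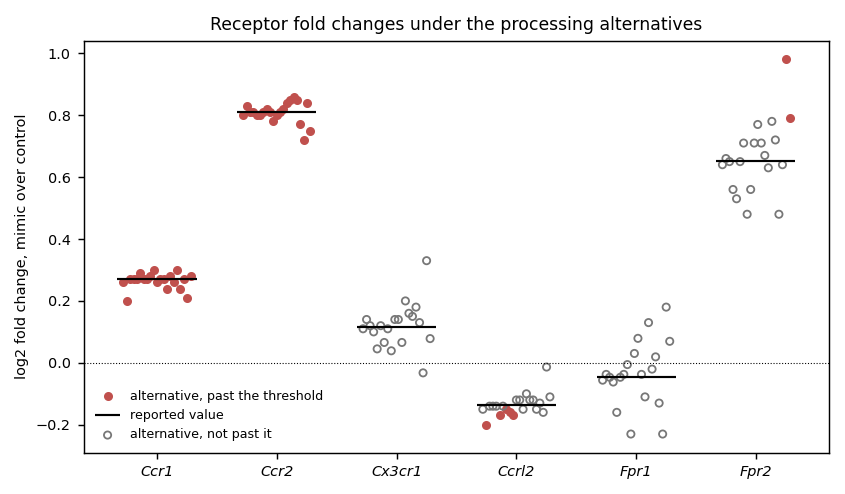
log2 fold change, mimic over control, of the 6 tested receptors under each processing alternative; filled points pass the threshold, open points do not, and the bar is the reported value. All alternatives of Ccr1 (0.20 to 0.30) and Ccr2 (0.72 to 0.86) pass it, and those of Fpr1 lie on both sides of 0.

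The 250 bases before each receptor's start in RefSeq (GRCm38.p6) were searched on both strands for 3 short motifs of factors active in macrophages. These were TTCNNNGAA (GAS, bound by STAT proteins), GAGGAA (PU.1) and TTGCNNAA (C/EBP). Over 27025 promoters of that length, 7.18% held the GAS letters, 23.13% the PU.1 letters and 9.55% the C/EBP letters. The window of Ccr1, one of the 2 receptors called, held the PU.1 letters from -129 to -124 on the gene's strand. It is shown for chr9:123968693-123968942 (minus strand) with those letters in capitals.
Ccr1: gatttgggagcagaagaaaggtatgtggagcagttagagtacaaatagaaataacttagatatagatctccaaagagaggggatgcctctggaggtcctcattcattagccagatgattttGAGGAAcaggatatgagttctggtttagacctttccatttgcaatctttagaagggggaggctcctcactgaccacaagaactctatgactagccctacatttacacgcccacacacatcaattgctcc
The Ccr3 window held the PU.1 letters from -181 to -176. The Fpr2 window held the GAS letters from -77 to -69 and the PU.1 letters on the opposite strand from -19 to -14. None of the 3 motifs was in the Ccr2, Cx3cr1, Ccrl2 or Fpr1 windows. A match is a description of the letters and not evidence of binding.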

How the data were processed

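RNA from 6 miR-150 mimic and 5 negative control samples was sequenced, and the sample titles gave group and replicate number. STAR, Subread, featureCounts and edgeR are named by the submitters' processing notes, without versions; build and strand setting were not given. The authors deposited log2 CPM per library (and log2 fold changes with limits), p-values and adjusted p-values, and a score per gene (t, B and a signed linear fold). Each log2 CPM was found to be a whole read number plus 0.5 over a scaled total: 100% of values came out whole within 0.01 read, and scaled totals were 0.97 to 1.03 times the recovered ones. The submitters left out 1 further sample for poor fragmentation. The first of the 32265 rows for each of 31936 genes was kept.

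The 12969 genes with 5 or more libraries at a log2 CPM of -1 or above were fitted with limma 3.58.1 (R 4.3.3, statmod 1.5.0). The fit used trend and robust settings, a group term only, Benjamini-Hochberg adjustment and a threshold of 0.05. It was also run on simulated libraries with no length slope and no outlying library, so that run does not measure error rates in these data. Single values used 2-sided exact permutation tests, whose smallest p for 6 against 5 is 0.00216. As an alternative, the recovered reads were fitted by voom, which weighted each library. Mimic replicate 1 had the lowest weight, 0.356, against 0.582 to 1.824 in the other libraries. No other count model was run on them. Coordinates, exon lengths and shared 50-base stretches come from GENCODE M21 (GRCm38), promoters from RefSeq; all 7 receptors matched both. Python 3.11.15, pandas 2.3.3, numpy 2.4.6, scipy 1.17.1 and matplotlib 3.10.9 were used. Replicate pairs differed beyond sampling noise (chi-square per degree of freedom 2.57 to 44.1), most between mimic replicates 1 and 4.

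The receptors, lists, markers, motifs and tests were chosen with earlier results of these data known. Named were every receptor, up to 6 called genes of each list by smallest p, Cxcr4, Ccl2, Ccl5 and C5ar1, and the 2 genes most like each tested receptor. Chromosome 9 neighbours, uncalled ligands and ligands under the filter, and the 4 ratios were added after their values were seen. Some genes and sequences, and 1 of the ratios, are not reported here. Alternatives changed scaling, filter, pseudocount, threshold, weighting (voom), a replicate block, a transcript length correction (lowess, span 0.3) and the libraries used.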

Additional observations from a re-analysis of the deposited data

Results flagged for a closer look

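Over 28 genes and 2 groups each, 56 groups of libraries were checked for a single library far from the others, and 4 were found; chance gives about 1 in 20 groups. Control replicate 6 was far below the other control libraries for 2 receptors. Its Ccr3 value was -3.66 log2 CPM, from 1 read, against -2.07 to -1.53 in the other 4 control libraries. Its Cx3cr1 value was 0.31 log2 CPM, against 0.95 to 1.16 in the others.

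The other 2 were related genes in mimic libraries. Saa3 was at 7.94 log2 CPM in mimic replicate 1, against 7.16 to 7.44 in the other mimic libraries. Grk5 was at 4.31 log2 CPM in mimic replicate 5, against 4.44 to 4.47 in the others.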

How the results depend on the processing

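Ccr1 and Ccr2 kept their direction and call in all 21 alternatives. Ccrl2 passed the threshold with quantile normalization (-0.20), the voom fit (-0.17), the replicate block (-0.15) and without mimic replicate 1 or 2 (range over libraries left out -0.17 to -0.10), so receptors called lower numbered 1 there (0 to 1 over libraries left out). Fpr2 passed it without mimic replicates 3, 4 and 6 (0.98) and with length correction (0.79); it ranged from 0.48 to 0.78 with 1 library left out. Fpr1 changed sign without those 3 libraries (0.18) and with length correction (0.0695), ranging from -0.23 to 0.13 with 1 library left out; Cx3cr1 ranged from -0.0324 to 0.20 and was 0.33 without the 3 libraries. The Ccr3 difference, not called in the fit with no filter, was 0.76 without the 3 libraries (exact permutation p = 0.161, against 0.00649 with them) and ranged from 0.59 to 1.12. The Ccr1 to Ccrl2 ratio was 0.23 without them, against a range of 0.34 to 0.47; the Fpr2 to Fpr1 ratio ranged from 0.49 to 0.88. C5ar1 reversed with quantile normalization (-0.0448) and the replicate block (-0.00297), ranging from -0.00297 to 0.0533. The causes were not tested.

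Genes called higher and lower numbered 967 and 792 at a threshold of 0.01, 1214 and 886 without the 3 libraries, and 1488 to 2693 and 1403 to 2506 with 1 library left out. The highest counts, 2693 and 2506, came without mimic replicate 1, against 1997 and 1895 with all libraries. Other chemokine receptors called higher numbered 1 with plain library totals, a mean log2 CPM of at least 1, a threshold of 0.01, or without the 3 libraries (1 to 2 with 1 left out); those called lower numbered 2 in the voom fit, 0 at 0.01 and 0 without the 3 libraries (0 to 2). Other chemoattractant receptors called higher numbered 3 with the mean filter and at 0.01 (3 to 6). Ligands called higher numbered 2 with the mean filter; those called lower numbered 1 with it, 1 at 0.01 and 0 without the 3 libraries (1 to 3). Signalling genes called higher numbered 4 with quantile normalization, and those called lower 14 with it, 4 at 0.01 and 3 without the 3 libraries (5 to 11).

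The labels do not say whether a shared replicate number marks a shared animal or day. Same-numbered deviations correlated at 0.001, -0.043, -0.061, 0.062 and 0.031, and own number was highest for 2 of 5. So few correlations cannot show whether the libraries were paired. With the number as a block, 1 receptor was called lower, Ccrl2 (-0.15, limma adjusted p = 0.038).

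Ccr3, Fpr1 and Fpr2 rest on 1 to 30 reads per library, so differences of their size are measured loosely. The mean filter leaves out low genes and so tests fewer of each list.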

Other observations

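The tested genes most like each receptor across the 11 libraries, by the mean absolute difference of log2 CPM centred on the control mean, were found among all 12969. For Ccr1 they were Rgs1 (0.031) and Eif2s1 (0.036), and for Ccr2 1600014C10Rik (0.128) and Psme2b (0.131). Ccrl2 was closest to Mob2 (0.033) and Naaa (0.036), and Cx3cr1 to Agbl3 (0.117) and Stard13 (0.136). Fpr1 was closest to Pcolce (0.229) and Pilrb1 (0.239), and Fpr2 to C030034L19Rik (0.219) and C2 (0.228), distances that are larger where reads are few. Likeness was measured on libraries that the receptors and these genes share, so it describes these samples alone.

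Markers of other cell types were measured beside the receptors. The 5 listed dendritic cell genes summed to 687 to 737 CPM in mimic libraries and 857 to 919 CPM in control libraries, with Itgax, an integrin gene that macrophages also express, lower at -0.33 and Cd209a lower at -1.45. Cd209a had only 37 reads over the mimic libraries and 67 over the control libraries. It may have entered the fit mostly through the group in which it was higher. The listed genes of mast cells, T cells, B cells and NK cells each summed to at most 1.98 CPM in a mimic library and 2.17 CPM in a control library. The 6 genes of large peritoneal macrophages summed to 9.56 to 14.0 CPM in mimic libraries and 12.2 to 12.75 CPM in control libraries.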
